A study of Rattus norvegicus with 15 samples.

Results

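The posterior cerebral artery of rats was compared between 3-vessel occlusion (3VO) and sham surgery 3 d after the operation. The arrays were chosen by their source labels, which gave 3 arrays of 3VO at 3 d and 3 arrays of sham at 3 d, or 6 of the 15 arrays of the series. In 3VO both vertebral arteries were closed by electrocoagulation and the left common carotid artery was ligated. In the sham operation the same vessels were exposed and left untouched. All animals were Sprague Dawley rats aged 7 weeks, operated under isoflurane with buprenorphine, and the artery was taken from the operated side after perfusion with latex under papaverine. The other groups, used here only for reference, were 3VO at 24 h, sham at 24 h and intact animals, with 3 arrays each. Each array was an Affymetrix Rat230A array that held RNA pooled from the arteries of 8 rats. Since hybridisation of 1 RNA pool more than once is also mentioned in the labels, the arrays of a group may or may not come from different animals. The p-values therefore reflect array-to-array spread that may be technical. Values of single arrays are given below in the order of replicates 1, 2 and 3, which are arrays 2A, 11A and 12A after 3VO and arrays 3A, 7A and 10A after sham surgery.

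Closing several supply arteries of the brain lowers the pressure behind them and sends more blood through the remaining collateral vessels, of which the posterior cerebral artery is one. Such vessels can widen by outward growth, a process called arteriogenesis. In other vascular beds it is known to involve a response of the endothelium to shear stress, monocytes that gather at the wall and become macrophages, division of endothelial and smooth muscle cells, a smooth muscle state with less contractile protein, and remodelling of the matrix by proteases held in check by their inhibitors.

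Replicate 1 of the sham group at 3 d (array 3A) carries a treatment text that describes the occlusion, while its title, description, source label and extraction text give sham surgery. It was kept as sham, and results are also given without it. Its Timp1 signal of 15921 lay beside 17320 and 16329 on the other sham arrays, far from the 45062 to 67170 of the 3VO arrays. Among the 14 leading genes that were higher after 3VO, it was the sham array nearest to the 3VO arrays for 8, and for 4 of the 14 leading genes that were lower. Over all probe sets without overlap it was the nearest for 247 of the 683 higher and 290 of the 747 lower ones. The probe sets without overlap, Timp1 among them, are those where array 3A lay on the side of the other sham arrays. Neither reading of the label is therefore settled by these values. Correlations of log2 values between arrays were 0.929 to 0.94 within the 3VO group, 0.909 to 0.935 within the sham group and 0.908 to 0.94 between them. The ranges thus overlapped. Sham replicate 3 gave the low ends, at 0.909 with array 3A and 0.908 with 3VO replicate 1, while sham replicates 1 and 2 correlated at 0.935.

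Signals had a mean, trimmed by 2% at each end, of 5000 on every array, with medians of 2553.4 to 2938.4 and 1.36% to 5.27% of values below 100. The tissue label was checked against marker genes. Smooth muscle genes were bright, with Acta2, smooth muscle actin, at 32732, 46473 and 44673 after 3VO and 34188, 73662 and 57508 after sham surgery. Brain markers were bright too. The synaptic gene Snap25 stood at 31254, 17931 and 51631 after 3VO and 22922, 27732 and 21628 after sham surgery, and the myelin gene Mbp at 220700, 132420 and 94128 after 3VO and 220500, 203020 and 129100 after sham surgery. The astrocyte gene Gfap stood at 110740, 71949 and 80371 after 3VO and 113550, 77622 and 57825 after sham surgery, so that all of these overlapped. Ttr, the hallmark of the choroid plexus, stood at 11006, 9354 and 165830 after 3VO and 15716, 12090 and 261010 after sham surgery, so that replicate 3 of each group was far above the other two. Growth hormone, Gh1, stood at 3294, 24591 and 1569 after 3VO, highest on replicate 2, and at 643.9, 1581 and 725.9 after sham surgery. Pmp22, a myelin gene of peripheral nerve, stood at 95113, 44321 and 25261 after 3VO and 157820, 34115 and 38176 after sham surgery, highest on replicate 1 of each group. The dissected artery thus came with brain, choroid plexus, pituitary and nerve RNA in amounts that differed between arrays, and fewer cells of a type cannot be told apart from less RNA per cell in such pooled tissue.

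Each difference below is the mean of log2(signal + 16) over the 3VO arrays minus that over the sham arrays, its standard error (SE) comes from limma, and p-values were adjusted over all 15737 probe sets tested by the method of Benjamini and Hochberg. No probe set passed at an adjusted p under 0.05 (0.0%), and 745 had an unadjusted p under 0.05 (4.73%), of which 373 were higher and 372 lower after 3VO. The lowest limma adjusted p was 0.0869. The 3 arrays of 3VO all lay above the 3 of sham for 683 probe sets (4.34%) and all below for 747 (4.75%). None of the genes below therefore passed the test, and their values describe these 6 arrays. Over 10360 genes, each taken at its brightest probe set, 49.2% were higher after 3VO, the arrays of both groups did not overlap for 4.6% in the higher and 4.44% in the lower direction, and the median log2 difference was -0.0048. Gene lists are described below by the same counts and are to be read against these shares. Values given without a replicate come from fits that leave out that array of 3 d, and are shown where they move a log2 difference of at least 0.3 by over 1.5 times. For many list medians, though not all that move this far, the lowest and highest of the 6 such values are given.

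Timp1, the secreted inhibitor of matrix metalloproteinases, had the smallest p. It stood at 45062, 67170 and 53962 after 3VO, against 15921, 17320 and 16329 after sham surgery and 13245, 8328 and 18022 in intact arteries. The 3VO arrays lay far above all sham arrays, which were close to each other. The log2 difference was 1.73 (SE 0.25, limma adjusted p = 0.0869), or 1.70 without array 3A. As means ± SD over 3 arrays, 3VO had 55398 ± 11124 and sham 16523 ± 719.5.

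**Figure D1:**
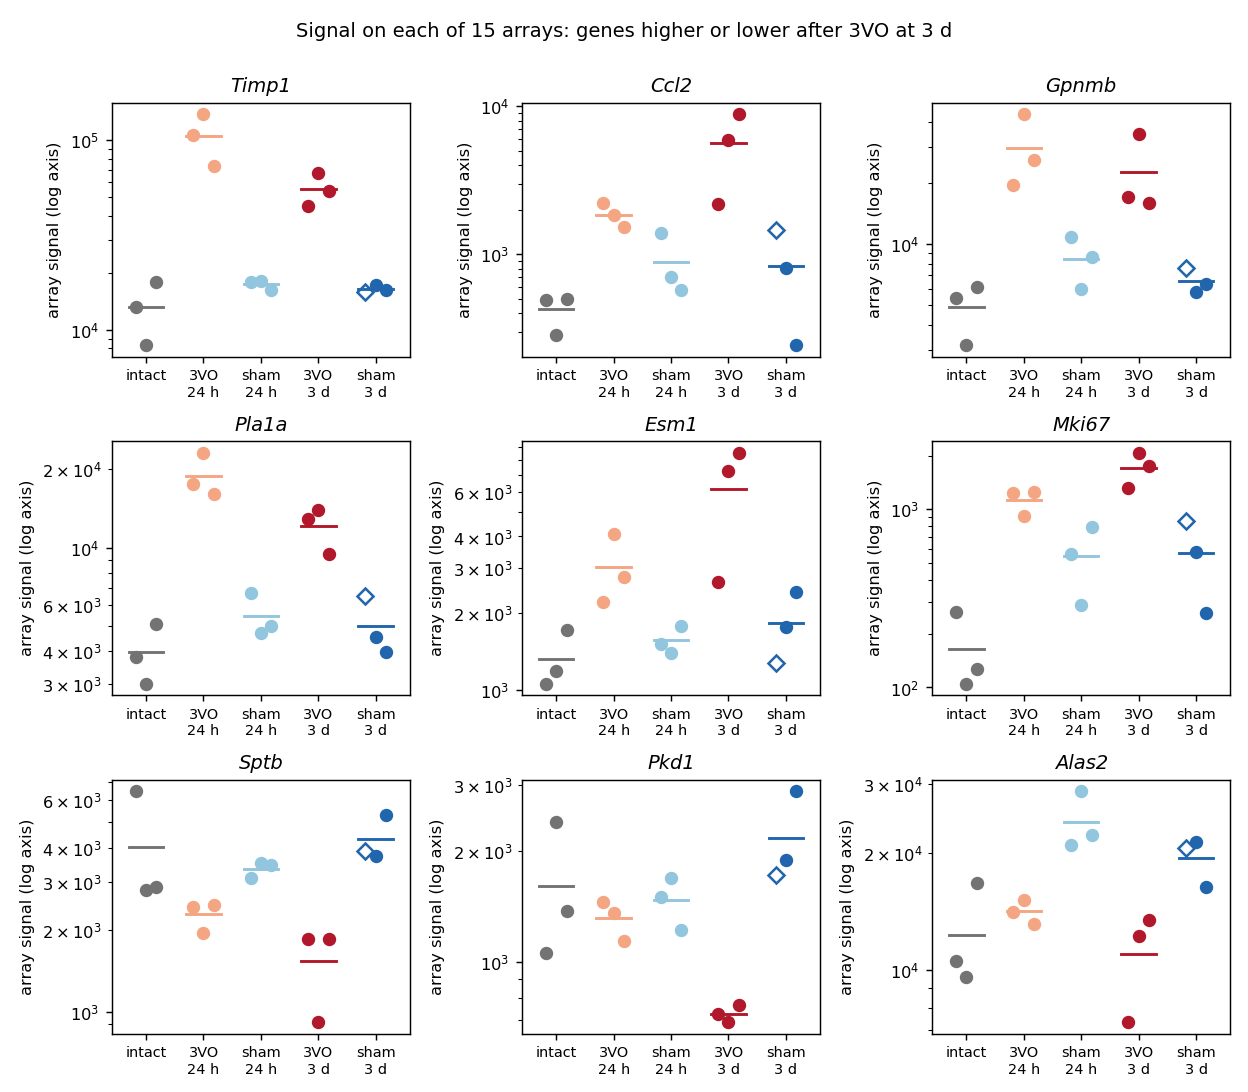
Array signal (log axis) of 9 genes on all 15 arrays, by group, with 1 point per array, a bar at the group mean and an open diamond for sham array 3A of 3 d. At 3 d the 3 arrays of 3VO lie above the 3 of sham for Timp1, Ccl2, Gpnmb, Pla1a, Esm1 and Mki67 and below them for Sptb, Pkd1 and Alas2. For Timp1 the 3VO arrays lie between 45062 and 67170 and the sham arrays between 15921 and 17320.

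Protease inhibitors lay on both sides. Of 23 measured genes besides Timp1 13 were higher and 10 lower after 3VO, and the median log2 difference was 0.063. Among the higher ones 4 did not overlap, where 4.6% of genes did so. This list was drawn up knowing that Timp1 and A2m had been high at 24 h, so it is not independent evidence of a direction. A2m, a broad protease trap, stood at 29388, 20776 and 21239 after 3VO, against 17708, 8100.5 and 15751 after sham surgery, so that the groups came close to each other (log2 0.84, SE 0.23, 0.49 without sham replicate 2). Serping1, which blocks the first complement proteases, stood at 59135, 68566 and 50676 after 3VO and 41554, 44992 and 35332 after sham surgery (log2 0.55). Tfpi2, an inhibitor of serine proteases in the matrix, differed by 0.65 (0.33 without 3VO replicate 1), and Pzp, a relative of A2m, by 0.67 (0.42 without sham replicate 3), both with no overlap. The other metalloproteinase inhibitors overlapped, with Timp2 at 0.20, Timp3 at -0.21 and the membrane-bound Reck at -0.11. Other probe sets of Timp2 and Timp3 had the opposite sign.

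Among 26 proteases of the matrix, 15 were higher and 11 lower, with a median of 0.097 (-0.0216 without sham replicate 1 to 0.108 without sham replicate 3). Htra1, a secreted serine protease, stood at 9438, 11986 and 11598 after 3VO and 5615, 9528 and 6265 after sham surgery, where the highest sham array overlapped by a small margin (log2 0.65, SE 0.18). Mmp11, a metalloproteinase of stromal cells, was dim at 922.8, 675.9 and 737.9 after 3VO and 257.9, 326.9 and 395.9 after sham surgery (log2 1.22). Mmp8, the collagenase of neutrophils, ran the other way at 41, 190 and 518.9 after 3VO and 754.8, 1062 and 899.8 after sham surgery (log2 -2.31, SE 0.64, -1.46 without 3VO replicate 1), with 3VO replicate 1 below a signal of 100. Of the 13 metalloproteinases 9 were higher with a median of 0.147, and without array 3A 4 were higher and the median was -0.135, so that their direction rested on that array.

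Ccl2, the chemokine that draws monocytes to a tissue, had the largest difference of the leading genes. It stood at 2189.6, 5877 and 8803 after 3VO, against 1472, 806.8 and 244 after sham surgery and 495.9, 285.9 and 501.9 in intact arteries. All 3VO arrays lay above all sham arrays, but each group spread widely, and sham array 3A, at 1472, came closest to the lowest 3VO array. The log2 difference was 2.83 (SE 0.60, limma adjusted p = 0.524), 3.39 without array 3A and 2.13 without sham replicate 3. At 24 h it was 1.14, and the difference between the times did not pass (1.70, limma adjusted p = 0.999).

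Other chemokine genes mostly had small differences. Of 18 measured ligands besides Ccl2 12 were higher and 6 lower, 1 with no overlap, and the median was 0.091. With the receptors included, 18 of 25 were higher (median 0.098). Ccl6, another ligand for myeloid cells, stood at 2143, 5206 and 4742 after 3VO and 2456, 1362 and 577.9 after sham surgery, where 3VO replicate 1 overlapped (log2 1.58, 1.03 without sham replicate 3). Cxcl3, which attracts neutrophils, stood at 2702, 1912 and 2632 after 3VO and 267.9, 1819 and 592.9 after sham surgery (log2 1.82, 1.19 without sham replicate 1), with the opposite sign at 2 of its 3 other probe sets. Ccl4 differed by -0.87 (-0.17 without 3VO replicate 1 and -1.34 without 3VO replicate 2), with overlap. The receptor of macrophage growth factor, Csf1r, stood at 16795, 18469 and 19413 after 3VO and 16131, 16586 and 18008 after sham surgery (log2 0.11). The receptor Cx3cr1 differed by 0.21, with overlap. Among adhesion molecules that leukocytes bind, Icam1 differed by 0.25 (SE 0.23) and Vcam1 by 0.22 (SE 0.16), again with overlap.

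Macrophage genes were higher throughout. All 20 measured markers, of 28 listed, had a higher mean after 3VO, 10 of them with no overlap, where 4.6% of genes did so, and the median log2 difference was 0.51. Without array 3A all 20 stayed higher with a median of 0.456, and without sham replicate 3 all 20 with a median of 0.307. Without 3VO replicate 1 the count was 19, with a median of 0.615. The summed signal of the list was 348400 to 425100 after 3VO and 257600 to 309800 after sham surgery, while intact arteries spanned 198100 to 364200. The intact range thus reached into that of 3VO.

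Gpnmb, a glycoprotein of lysosome-rich macrophages, stood at 17057, 34938 and 15975 after 3VO, against 7584, 5828 and 6339.8 after sham surgery (log2 1.69, SE 0.34, limma adjusted p = 0.524). The lowest 3VO array had more than the highest sham array, and replicate 2 stood above the other two. Fcgr2b, the inhibitory receptor for antibody complexes, stood at 10289, 10783 and 6979.6 after 3VO and 4285, 3419 and 2048 after sham surgery (log2 1.56, SE 0.34), again with no overlap. Cd68, a glycoprotein of macrophage lysosomes, stood at 6729, 8926 and 7404 after 3VO and 4832, 3197 and 4529 after sham surgery (log2 0.89, SE 0.23). Its difference had been 0.20 at 24 h. Spp1, osteopontin, a secreted phosphoprotein of activated macrophages and matrix, stood at 7522, 15148 and 13695 after 3VO and 6053, 6926 and 4463 after sham surgery (log2 1.02). Lgals3, the galactose-binding lectin of macrophages, differed by 0.68 (0.45 without 3VO replicate 2) with no overlap.

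Genes of lysosomes and lipid handling were higher in 24 of 31 cases, 7 with no overlap, where 4.6% of genes did so. Their median was 0.184 (0.0714 without sham replicate 2 to 0.299 without sham replicate 1). Of the 9 cathepsins, the proteases of lysosomes, 8 were higher with a median of 0.25. Ctsk stood at 12037, 14197 and 12544 after 3VO and 10521, 7721 and 10839 after sham surgery (log2 0.43, SE 0.32, 0.27 without sham replicate 2), and Ctsz differed by 0.39, both with no overlap. The lysosomal hydrolase Gusb differed by 0.32. Hmox1, the haem-degrading enzyme, stood at 3279, 20432 and 5291 after 3VO and 3100.3, 1907 and 2442 after sham surgery (log2 1.53, SE 0.54, 0.77 without 3VO replicate 2), so that 1 array of 3VO carried most of its size.

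Neutrophil markers had no common direction, with 4 of 9 higher and 3 lower with no overlap, where 4.44% of genes did so. Their median was -0.166 (-0.563 without sham replicate 3 to 0.437 without sham replicate 2). S100a9, a calcium-binding protein of neutrophils, stood at 3915, 5243 and 4882 after 3VO and 5412, 20483 and 5276 after sham surgery (log2 -0.85, -0.20 without sham replicate 2), a narrow gap with 1 high sham array. Of 14 lymphocyte markers 8 were lower and 6 higher, all with overlap (median -0.119, with -0.177 without sham replicate 2 to 0.00296 without sham replicate 3). Their log2 differences ran from -1.4 to 0.908. Cd3d, part of the T cell receptor complex, differed by -1.35, while Cd3e of the same complex differed by 0.73. The Cd3e value was 0.48 without 3VO replicate 2, 1.23 without sham replicate 1 and 0.16 without sham replicate 3. All 4 measured platelet markers were higher (median 0.128, with -0.164 without sham replicate 2 to 0.492 without sham replicate 1) and overlapped.

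The first steps of the classical complement pathway were also higher, and C1qa, C1qb and C1qc belong to the macrophage list as well. All 5 measured genes of this step were higher, 4 with no overlap, where 4.6% of genes did so, and the median was 0.789. C1qb, a chain of the recognition protein C1q, stood at 16804, 19443 and 20708 after 3VO, against 10972, 10470 and 10984 after sham surgery and 10668, 7229 and 15040 in intact arteries (log2 0.81, SE 0.22, limma adjusted p = 0.703). The sham arrays were close to each other and within the intact range, and every 3VO array lay above both groups. C1qc differed by 0.82 and C1qa by 0.72. C1s, a protease of the same step, stood at 18348, 25217 and 20290 after 3VO and 14100, 12736 and 10122 after sham surgery (log2 0.79). Its partner C1r differed by 0.61 (0.36 without 3VO replicate 2) with overlap.

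Further down the cascade fewer genes could be read. Of 10 listed components only 3 were measured, 2 of them higher (median 0.279, with 0.0492 without sham replicate 3 to 0.463 without sham replicate 2). All 3 measured receptors were higher (median 0.353, with 0.175 without sham replicate 1 to 0.561 without sham replicate 2), and 4 of 7 regulators. Over 18 measured complement genes 14 were higher and 4 lower, with a median of 0.443. Of the higher ones 6 had no overlap, where 4.6% of genes did so. C3, on which all complement pathways meet, stood at 7835, 5647 and 6569 after 3VO and 6398, 8348 and 8675 after sham surgery (log2 -0.22, SE 0.21), with the groups overlapping. Cfd, the protease that starts the alternative pathway, stood at 8530.3, 9303 and 6269.8 after 3VO and 6199.7, 2808 and 4610.1 after sham surgery (log2 0.87, 0.57 without sham replicate 2), a narrow gap. The complement receptor gene Itgam differed by 0.76 (0.25 without sham replicate 1) and C5ar1 by 0.11, both with overlap.

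Acute phase and related secreted proteins were led by ceruloplasmin, Cp, the copper-carrying ferroxidase. At the probe set with the smallest p, Cp stood at 40959, 23631 and 17482 after 3VO, against 13684, 6963 and 6443 after sham surgery (log2 1.59, SE 0.30, limma adjusted p = 0.424). Array 3A was the highest of the sham arrays there, and the value without it was 1.94. At the brightest Cp probe set the difference was 0.94 (SE 0.33) and array 3A overlapped with 3VO. Over 20 acute phase genes 14 were higher, 1 with no overlap, with a median of 0.149 (-0.0824 without sham replicate 2 to 0.295 without sham replicate 3). Lcn2, an iron-sequestering carrier, stood at 7569.5, 3319 and 2536 after 3VO and 2519.5, 2858 and 2138 after sham surgery (log2 0.68, 0.22 without 3VO replicate 1), and Lbp, which binds endotoxin, differed by 0.74 (1.12 without sham replicate 1 and 0.38 without sham replicate 3), both with overlap. Orm1, a carrier protein made mainly by liver, differed by -0.63 (-0.96 without sham replicate 1), with overlap.

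Pla1a, a phospholipase that acts on phosphatidylserine, stood at 12852, 13935 and 9492 after 3VO, against 6531, 4533 and 3955 after sham surgery (log2 1.28, SE 0.24, limma adjusted p = 0.424). Ifitm1, an interferon-induced membrane protein, stood at 44744, 57153 and 49859 after 3VO and 29780, 21644 and 23905 after sham surgery (log2 1.02, SE 0.22). For both genes all 3VO arrays stood clear of all sham arrays. Interferon-induced genes as a list lay on both sides. Of 20 measured 8 were higher and 12 lower with a median of -0.049, among them Ifit1 at -0.44 (-0.26 without 3VO replicate 3 and -0.28 without sham replicate 1). Of 11 genes of antigen presentation 9 were higher (median 0.162, with 0.0179 without 3VO replicate 2 to 0.212 without 3VO replicate 1), none without overlap. The cytokine Tgfb1 differed by 0.50 (0.33 without sham replicate 1) with no overlap, within a list of 13 cytokines and receptors of which 8 were higher (median 0.111, with 0.0349 without sham replicate 3 to 0.19 without 3VO replicate 1).

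Genes of cell division formed the other large group on the higher side. Of 45 listed genes of mitosis 30 were measured, 27 were higher after 3VO and 3 lower, 9 did not overlap and lay above sham, where 4.6% of genes did so, and the median log2 difference was 0.485. Without array 3A 27 were higher with a median of 0.448, and without sham replicate 3 the count was 24 with a median of 0.481. No member passed, and 12 had an unadjusted p under 0.05, all higher. The mean of the list on each array, with every gene centred on its mean over all 15 arrays, was 0.14, 0.70 and 0.67 after 3VO, against -0.04, 0.01 and -0.19 after sham surgery. Replicate 1 of 3VO was thus the lowest of its group and still above all sham arrays. The intact arrays lay lowest, at -0.59, -0.52 and -0.41.

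Mki67, the marker of dividing cells, stood at 1319, 2069 and 1746 after 3VO, against 860.8, 577.9 and 261 after sham surgery and 263.9, 105 and 127 in intact arteries (log2 1.70, SE 0.49, limma adjusted p = 0.756). Cdk1, the kinase that drives entry into mitosis, stood at 2069.6, 3753 and 3421 after 3VO and 1621, 1739 and 502.9 after sham surgery (log2 1.39, SE 0.40, 0.82 without sham replicate 3). Its partner Cks2 stood at 2047, 3155 and 3317 after 3VO and 1296, 700.9 and 1416 after sham surgery (log2 1.34, SE 0.38). For all of these the groups did not overlap, and 3VO replicate 1 was the lowest array of its group. Kif22, a motor protein that moves chromosomes, stood at 1728, 1847 and 2124 after 3VO and 779.8, 962.8 and 942.8 after sham surgery (log2 1.07, SE 0.30). The mitotic cyclin Ccnb2 differed by 0.97 and the tubulin Tubb5 by 0.45, both with overlap. Cdca3, a trigger of mitotic entry, differed by 0.63, and Cdc20, an activator of the anaphase-promoting complex, by 0.53, both with no overlap, though another probe set of Cdc20 had the opposite sign.

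**Figure D2:**
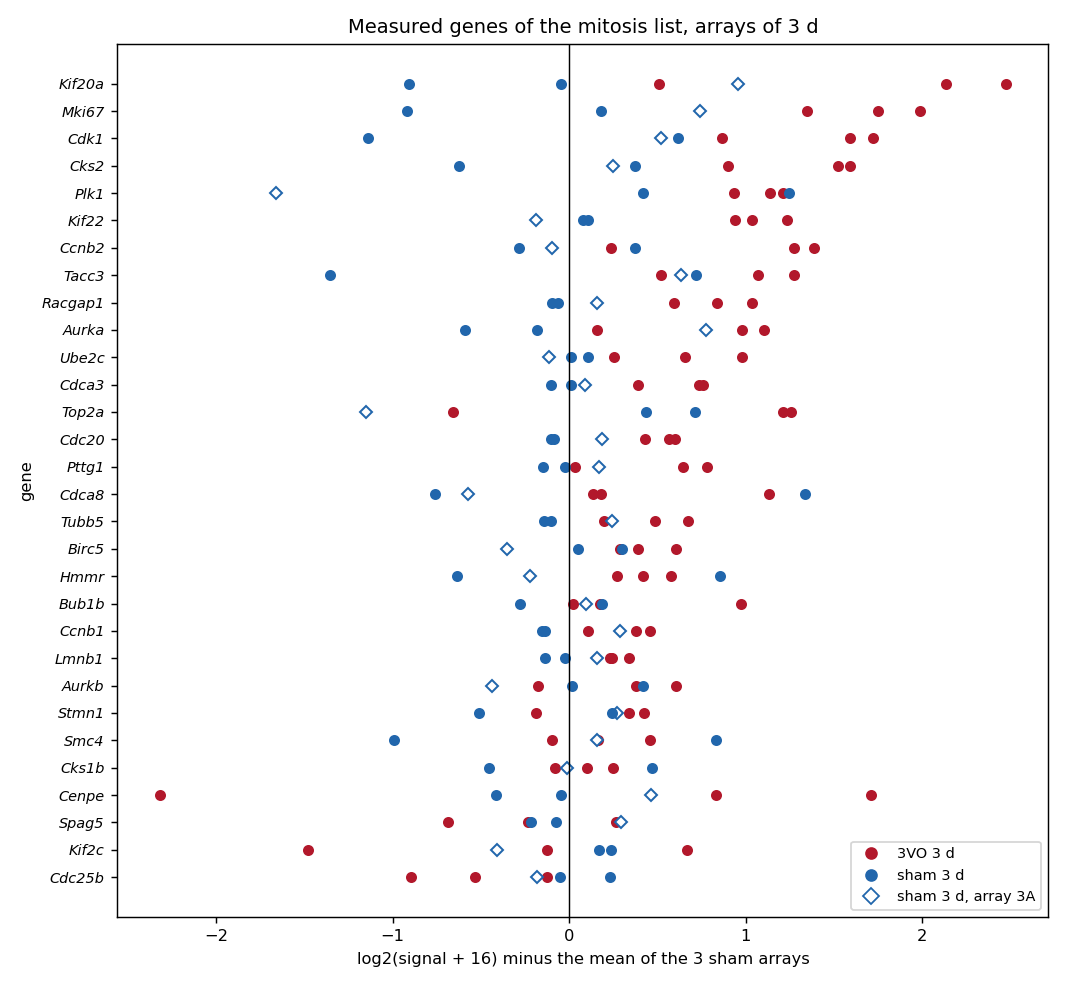
Log2(signal + 16) of the 30 measured genes of the mitosis list on the 6 arrays of 3 d, minus the mean of the 3 sham arrays, with 3VO in red, sham in blue and an open diamond for array 3A. Genes run from the highest log2 difference at the top to the lowest at the bottom, 27 above 0 and 3 below, and 9 have all 3VO points to the right of all sham points.

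Many genes of mitosis share a pair of promoter elements, the cell cycle homology region (CHR) and the CCAAT box, through which their transcription is held back outside of cell division and raised in it. The promoters of the 3 members of the list with the smallest p are shown for this reason, from 250 bases before to 50 after the annotated start of the gene, from RefSeq on rat build GRCr8, 5′ to 3′ on the strand of the gene. They lie at chr1:191080829-191081128 (minus strand), chr17:13727470-13727769 (minus strand) and chr20:19265043-19265342 (plus strand). Capitals mark CHR (TTTGAA) and CCAAT, each on either strand.
Kif22: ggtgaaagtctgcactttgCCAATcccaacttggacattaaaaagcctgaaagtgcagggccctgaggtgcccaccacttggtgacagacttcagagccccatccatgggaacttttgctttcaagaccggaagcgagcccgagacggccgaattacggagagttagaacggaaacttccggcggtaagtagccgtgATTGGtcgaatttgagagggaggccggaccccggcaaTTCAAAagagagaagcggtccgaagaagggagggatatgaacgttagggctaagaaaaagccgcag
Cks2: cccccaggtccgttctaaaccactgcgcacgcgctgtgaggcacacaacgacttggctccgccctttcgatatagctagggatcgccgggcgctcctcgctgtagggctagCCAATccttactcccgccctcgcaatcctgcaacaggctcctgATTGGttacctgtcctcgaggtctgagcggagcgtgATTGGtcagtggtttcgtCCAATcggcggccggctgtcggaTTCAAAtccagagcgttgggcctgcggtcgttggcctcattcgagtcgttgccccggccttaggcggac
Cdk1: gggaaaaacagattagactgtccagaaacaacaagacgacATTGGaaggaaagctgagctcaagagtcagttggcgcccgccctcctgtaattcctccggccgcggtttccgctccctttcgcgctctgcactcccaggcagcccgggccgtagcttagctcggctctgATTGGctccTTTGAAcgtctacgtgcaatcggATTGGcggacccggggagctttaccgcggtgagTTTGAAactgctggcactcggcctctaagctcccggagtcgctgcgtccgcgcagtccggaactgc
The CHR nearest before the start begins 16 bases before it in Kif22, 19 in Cks2 and 16 in Cdk1. CCAAT was found 2 times in the Kif22 window, 4 times in that of Cks2 and 3 times in that of Cdk1. Both elements were present in the windows of 17 of the 27 measured mitosis genes that had one in the table (63.0%), in 0 of 22 of the DNA replication genes, in 4.93% of 8587 windows of all measured genes and in 7.41% of all 33469 windows. Taken alone, CHR was present in 18.3% and CCAAT in 37.5% of all windows, and in 66.7% and 88.9% of those of the mitosis list. A match to these letters describes the sequence and does not show that a factor binds there.

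Genes of DNA replication were higher by smaller amounts. Of 23 measured 21 were higher, 3 with no overlap, where 4.6% of genes did so. The median was 0.179 (0.136 without sham replicate 3 to 0.273 without 3VO replicate 1). Pold1, the catalytic subunit of a replicative polymerase, stood at 2318, 1649 and 1825 after 3VO and 1013, 1391 and 1058 after sham surgery (log2 0.73, SE 0.27). Mcm4, part of the replicative helicase, stood at 1959, 1911 and 1946 after 3VO and 1228, 1336 and 1394 after sham surgery (log2 0.55), and Mcm3 differed by 0.40. Of 15 genes that govern entry into the cycle 9 were higher (median 0.016), 3 with no overlap, where 4.6% of genes did so. Among these, the cyclin Ccne2 was dim at 661.9, 577.9 and 922.8 after 3VO and 183, 356.9 and 288.9 after sham surgery, and the transcription factor Myc differed by 0.51. Ccnd1, the cyclin that growth signals induce first, overlapped (0.44, 0.23 without sham replicate 1 and 0.79 without sham replicate 2), and another of its probe sets had the opposite sign. Which cells divided cannot be read from pooled tissue.

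Esm1, or endocan, is a proteoglycan that activated endothelial cells secrete. It stood at 2639.5, 7212 and 8516 after 3VO, against 1276, 1767 and 2428 after sham surgery and 1057, 1182 and 1721 in intact arteries (log2 1.62, SE 0.39, limma adjusted p = 0.703). Replicate 1 of 3VO came within a small margin of the highest sham array. Of the 28 measured endothelial genes 7 were higher and 21 lower, 2 in each direction with no overlap, and the median was -0.123 (-0.231 without 3VO replicate 1 to -0.0811 without 3VO replicate 3). Pecam1, an adhesion protein of endothelial junctions, stood at 1565, 998.8 and 1407 after 3VO and 1684, 4876 and 2154 after sham surgery, where replicate 2 was far above the other two, and the groups did not overlap (log2 -0.99, SE 0.40, -0.55 without sham replicate 2). Nos3, the endothelial nitric oxide synthase, stood at 4533, 1889.6 and 1068 after 3VO and 3075, 5093 and 3009 after sham surgery (log2 -0.78, SE 0.46, -1.34 without 3VO replicate 1 and -0.30 without 3VO replicate 3), with overlap. The receptor Tie1 differed by -0.41 (-0.65 without 3VO replicate 1 and -0.25 without 3VO replicate 3), Kdr, the main receptor of vascular endothelial growth factor, by -0.30, and Flt4, the receptor of lymphatic vessels, by -1.71.

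Genes that set vascular tone had a median of -0.113 (-0.188 without 3VO replicate 2 to -0.0449 without 3VO replicate 3), with 13 of 31 higher. Npr3, the clearance receptor of natriuretic peptides, stood at 958.8, 1432 and 897.8 after 3VO and 475.9, 145 and 166 after sham surgery (log2 2.16, SE 0.65). Nos2, the inducible nitric oxide synthase, stood at 4333, 803.8 and 4046 after 3VO and 287.9, 351.9 and 433.9 after sham surgery (log2 2.72, SE 0.76), with 3VO replicate 2 well below the other two. Both did not overlap. Intact arteries had 199, 1029.8 and 215 for Npr3, where 1 array lay among those of 3VO, and 164, 362.9 and 175 for Nos2. Ptgis, which makes prostacyclin, stood at 4068, 13544 and 9091 after 3VO and 9808, 15441 and 14293 after sham surgery (log2 -0.70, -0.22 without 3VO replicate 1 and -1.09 without 3VO replicate 2), with overlap. Of 22 immediate early and flow-responsive factors 10 were higher (median -0.042, with -0.176 without sham replicate 3 to 0.112 without array 3A). Egr1, induced within minutes of mechanical stress, stood at 10203, 7749 and 11472 after 3VO and 12218, 11023 and 7862 after sham surgery (log2 -0.074), and Klf4, which laminar flow induces, differed by -0.29, both with overlap.

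Growth factors and their receptors were split, with 23 of 47 higher and a median of -0.012. In each direction 5 had no overlap, where 4.6% of genes did so in the higher and 4.44% in the lower direction. Igf1, insulin-like growth factor, was lower at 11274, 14019 and 13457 after 3VO, against 19763, 18220 and 17349 after sham surgery and 9849, 9450.2 and 13865 in intact arteries (log2 -0.52, SE 0.15). The 3VO arrays thus lay near the intact ones and the sham arrays above both. Another Igf1 probe set differed by -0.15. Tgfb2, a growth factor of the TGF-beta family, stood at 1569, 1483 and 1502 after 3VO and 2709, 2383 and 3253 after sham surgery (log2 -0.86, SE 0.23). Another Tgfb2 probe set differed by -0.83 (-0.13 without 3VO replicate 1 and -0.38 without sham replicate 3). Tgfb3 differed by -0.95 (-0.59 without 3VO replicate 1 and -0.61 without sham replicate 2) with overlap. Ccn1, a matrix-bound signalling protein, stood at 1322, 678.9 and 714.9 after 3VO and 2730.4, 1497 and 1998 after sham surgery (log2 -1.21), and Ltbp2, a latent TGF-beta binding protein, was higher at 2469.5, 3600.2 and 2612 after 3VO and 1945, 516.9 and 1521 after sham surgery (log2 1.29, 0.72 without sham replicate 2). Vegfa, the main growth factor of endothelium, differed by -0.37 (-0.18 without 3VO replicate 2) with no overlap, with the opposite sign at another probe set. Efna1, a membrane-bound ligand of Eph receptors, was lower at 668.9, 592.9 and 804.8 after 3VO and 1709.6, 1888 and 1549 after sham surgery (log2 -1.30, SE 0.33, limma adjusted p = 0.703). Its 3VO arrays lay within or near the intact range of 987.8, 659.9 and 1357.

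Genes of the extracellular matrix as a whole lay on both sides, with 28 of 55 higher and 27 lower and a median of 0.00072. That median was -0.115 without 3VO replicate 2, with 19 higher, and 0.123 without 3VO replicate 1, with 30 higher. Matn2, an adaptor protein of the matrix, was among the leading genes at 9951, 12683 and 8647 after 3VO, against 6528, 4636 and 5210 after sham surgery (log2 0.93, SE 0.19, limma adjusted p = 0.524). Crispld2, a secreted glycoprotein, stood at 15351, 21672 and 16399 after 3VO, against 9018, 12225 and 11315 after sham surgery and 6038, 8349 and 7072 in intact arteries (log2 0.71, SE 0.16). Each 3VO array lay above each sham array, and each sham array above each intact one. Postn, periostin, a matrix protein of injured tissue, spread widely, with 930.8, 6902 and 10348 after 3VO and 436.9, 224 and 2219 after sham surgery (log2 2.71, SE 0.98), and overlapped. Of the 27 elastic fibre genes and glycoproteins 19 were higher (median 0.153, with -0.0179 without 3VO replicate 2 to 0.398 without 3VO replicate 1), with the microfibril protein Fbn1 at 0.43 (0.27 without 3VO replicate 2). Of the 10 genes of the basement membrane 8 were lower (median -0.234, with -0.261 without sham replicate 2 to -0.139 without 3VO replicate 3). Lama5, the laminin chain of mature endothelium, stood at 5489, 4742 and 4751 after 3VO and 8050.3, 7165 and 8171 after sham surgery (log2 -0.64), with the opposite sign at another probe set. Agrn, agrin, differed by -0.40, with no overlap. Of 7 fibrillar collagens 5 were lower (median -0.073), with Col5a1 at -0.42 and no overlap. Of 11 other collagens 6 were lower (median -0.118, with -0.226 without 3VO replicate 2 to 0.0346 without 3VO replicate 1).

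**Figure D3:**
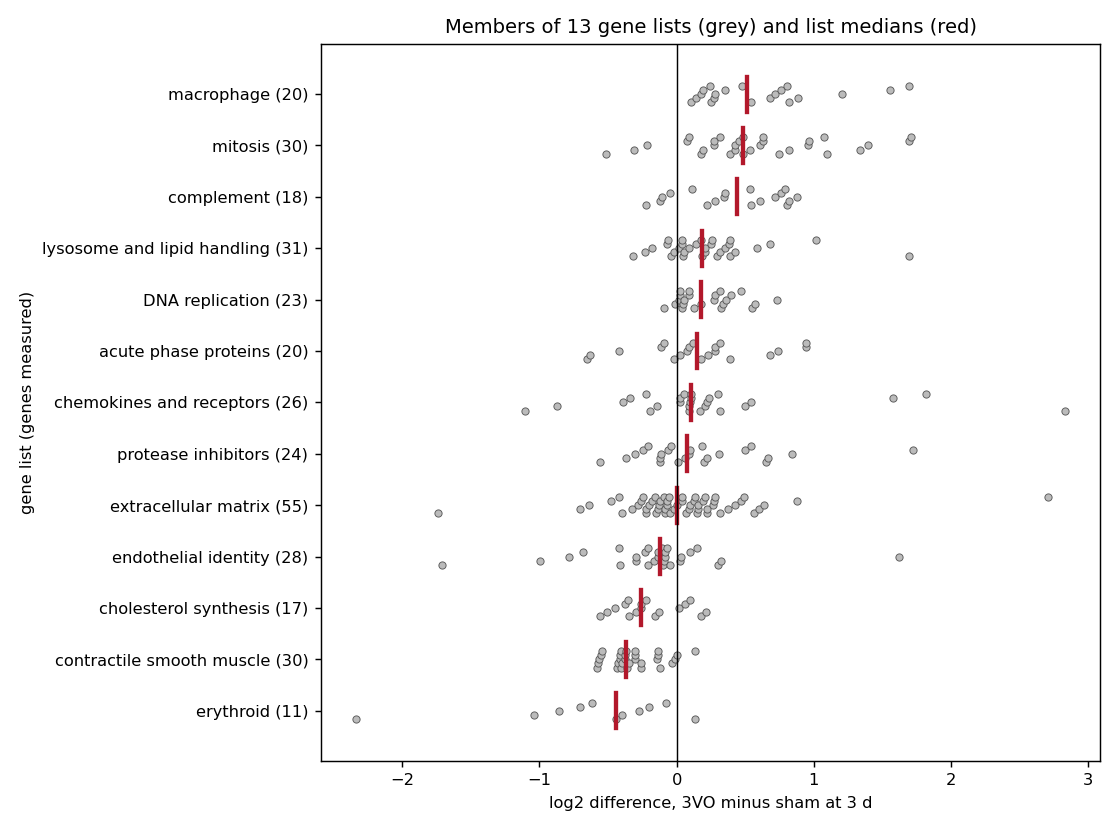
Log2 difference, 3VO minus sham at 3 d, of each measured gene in 13 lists (grey points, the number of genes in brackets) with the list median as a red bar, from the highest median at the top to the lowest. Macrophage (0.51), mitosis (0.485) and complement (0.443) have the highest medians and erythroid genes (-0.439) the lowest, and in most lists points lie on both sides of 0.

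The contractile apparatus of smooth muscle was lower in 28 of 30 measured genes, 2 with no overlap, where 4.44% of genes did so, and the median log2 difference was -0.366. Without array 3A all 30 were lower with a median of -0.524, while the median was -0.161 without sham replicate 2, with 7 higher, and -0.176 without 3VO replicate 1, with 4 higher. At 24 h all 30 were lower with a median of -0.569. Flna, which cross-links actin, stood at 54773, 57795 and 49837 after 3VO, against 62436, 99290 and 83487 after sham surgery (log2 -0.57, SE 0.23). Synm, an intermediate filament protein of muscle, stood at 13408, 10422 and 12606 after 3VO and 16624, 16254 and 15211 after sham surgery (log2 -0.41). These were the members whose groups did not overlap. Myh11, the smooth muscle myosin heavy chain, stood at 55376, 77950 and 55478 after 3VO and 70522, 116440 and 91525 after sham surgery (log2 -0.55, SE 0.27, -0.73 without array 3A). The sham arrays other than array 3A were the highest. Acta2 differed by -0.36 (SE 0.32, -0.20 without 3VO replicate 1 and -0.67 without sham replicate 1 and -0.12 without sham replicate 2), the actin-binding Cnn1 by -0.54 (-0.27 without 3VO replicate 1 and -0.30 without sham replicate 2) and Tagln by -0.41 (-0.22 without 3VO replicate 1). The light chain Myl9 differed by -0.26 (SE 0.27).

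The list mean of contractile genes was -0.41, 0.09 and -0.14 after 3VO, against -0.16 on array 3A and 0.51 and 0.13 on the other sham arrays, and it was -0.50, -0.04 and 0.25 in intact arteries. The groups thus overlapped through array 3A, and the intact arrays spanned most of the range. Some genes of other mural functions were lower too. Cspg4, the proteoglycan NG2 of pericytes and smooth muscle, stood at 2203, 2925 and 2356 after 3VO, against 3773, 6299 and 4537 after sham surgery (log2 -0.94, SE 0.25, limma adjusted p = 0.703). Synpo2l, an actin-associated protein of muscle, stood at 2618, 3817 and 2966 after 3VO and 4374, 7097 and 7364 after sham surgery (log2 -0.98, SE 0.28). Rbpms2, an RNA-binding protein of smooth muscle, differed by -0.56 with no overlap. Over 12 pericyte markers 8 were lower, 1 with no overlap, with a median of -0.049 (-0.297 without 3VO replicate 1 to 0.0165 without 3VO replicate 2). Without array 3A 5 of 12 were lower (median 0.0071), and without 3VO replicate 1 the count was 10 of 12. The direction of the pericyte list thus changed with the array left out. Of 13 genes of calcium handling 11 were lower (median -0.127, with -0.274 without sham replicate 1 to -0.0164 without sham replicate 2), among them the store channel Itpr1 at 14828, 16246 and 16760 after 3VO and 19399, 27007 and 26745 after sham surgery (log2 -0.60), with no overlap. Of 10 potassium channels 6 were lower (median -0.104, with -0.288 without sham replicate 3 to 0.121 without 3VO replicate 3), with Kcna5 at -0.35 and the pericyte channel gene Kcnj8 at 0.78 (0.38 without 3VO replicate 1). Pkd1, polycystin, a large membrane protein tied to mechanosensing in vessels, was one of the most clearly separated genes on the lower side. Pkd1 stood at 724.9, 689.9 and 766.8 after 3VO, against 1722, 1886 and 2886 after sham surgery and 1058, 2385 and 1371 in intact arteries (log2 -1.52, SE 0.31, limma adjusted p = 0.524).

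Erythroid genes were lower after 3VO. Of 11 measured, of 20 listed, 10 were lower, 6 with no overlap, where 4.44% of genes did so, and the median was -0.439. Alas2, which starts haem synthesis in red cell precursors, stood at 7350.5, 12212 and 13431 after 3VO, against 20642, 21402 and 16307 after sham surgery and 10528, 9617 and 16765 in intact arteries (log2 -0.86, SE 0.23, limma adjusted p = 0.703). The globin Hbb stood at 152610, 233260 and 182670 after 3VO and 347600, 249500 and 269060 after sham surgery (log2 -0.61), and Hba-a3 differed by -0.71, again with no overlap. Sptb, the beta spectrin of the red cell skeleton and not on that list, stood at 1849, 915.8 and 1859 after 3VO and 3906, 3739 and 5312 after sham surgery (log2 -1.53, SE 0.32, limma adjusted p = 0.524). The summed signal of the erythroid list was 220100 to 324800 after 3VO, 381400 to 464300 after sham surgery and 269800 to 398400 in intact arteries. The part of blood left in the vessel in these differences was not tested.

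Genes of cholesterol and fatty acid synthesis were lower in 12 of 17 cases, 3 with no overlap, where 4.44% of genes did so. Their median was -0.261 (-0.149 without array 3A), against a median of 0.109 at 24 h. Insig1, the sterol sensor that holds back this pathway and is itself a target of it, stood at 6377, 7787 and 5653 after 3VO and 10654, 10108 and 8322 after sham surgery (log2 -0.56, SE 0.14, limma adjusted p = 0.703). The fatty acid synthase Fasn differed by -0.45, squalene synthase, Fdft1, by -0.35 (-0.22 without sham replicate 2), and Sqle, the next enzyme of that path, by -0.51 (-0.31 without sham replicate 3), the last with overlap. Respiratory chain genes of mitochondria lay lower by small amounts in 34 of 44 cases (median -0.085), 4 with no overlap, where 4.44% of genes did so. Without sham replicate 3 they were lower in 25 of 44. The complex I subunit Ndufs3 stood at 9826, 10052 and 10624 after 3VO and 13369, 10986 and 14733 after sham surgery (log2 -0.35, SE 0.13). Of 13 clock genes 10 were lower (median -0.166, with -0.271 without 3VO replicate 2 to -0.102 without sham replicate 2), led by the repressor Nr1d1 at 3519, 4705 and 3339 after 3VO and 5451, 8162 and 7472 after sham surgery (log2 -0.86, SE 0.26). The labels used here give no time of day for the dissections.

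Further leading genes belong to none of these groups. Higher were Fancc, a DNA repair gene, at 1762, 2280.5 and 1205 after 3VO and 517.9, 332.9 and 663.9 after sham surgery, and Dnajb5, a cochaperone, at 1145, 1149 and 1495 after 3VO and 281.9, 631.9 and 216 after sham surgery. Glrx, a thiol-reducing enzyme, stood at 7081, 8457 and 7690.5 after 3VO and 5742, 4209 and 4048 after sham surgery. Timm29, of the protein import machinery of mitochondria, stood at 8221, 9371 and 10730 after 3VO and 5881, 6811 and 6679 after sham surgery. Lower were Hcrtr1, the orexin receptor, at 433.9, 418.9 and 847.8 after 3VO and 1473, 2159 and 2165 after sham surgery (log2 -1.79), the RNA-binding Rbm38 (-0.62), the mitochondrial ribosomal protein Mrpl37 (-0.57) and Commd9 (-0.39). For Dnajb5, Glrx and Timm29 the mean of the intact arrays was nearer to that of 3VO than to that of sham, at 1328, 7234 and 11026, while the sham arrays stood low. For Fancc it lay between both, at 1045. Over the 14 leading higher genes the limma adjusted p was 0.0869 to 0.703, and over the 14 leading lower ones 0.524 to 0.756. These genes were chosen for arrays that do not overlap, so leaving out array 3A could not change their sign. Without it the limma adjusted p was 0.104 to 0.622 for the higher and 0.432 to 0.727 for the lower ones. A probe set annotated to Kng1;Kng2l1;Kng2, precursors of bradykinin, lay outside the naming rule and was chosen after its values were seen. It stood at 3049, 1432 and 2716 after 3VO and 366.9, 295.9 and 1086 after sham surgery (log2 2.18).

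Markers of tissue around the artery differed between the arrays in ways that touch the results above. Neuronal markers were higher after 3VO in 28 of 34 cases (median 0.313, with 0.0095 without 3VO replicate 3 to 0.753 without 3VO replicate 2), none with no overlap, and their summed signal was 167000 to 376400 after 3VO and 183300 to 268300 after sham surgery. Choroid plexus markers were lower in 11 of 14 cases (median -0.474) and, without sham replicate 3, higher in 12 of 14 (median 0.539), so that 1 array set their direction. Their list mean was 2.47 on that array and 0.86 on 3VO replicate 3, against -0.68 to -0.44 on the other 4 arrays of 3 d. Astrocyte markers were split evenly (9 of 18, median -0.0027, with -0.214 without sham replicate 3 to 0.234 without 3VO replicate 2). Without array 3A 14 of 18 were higher (median 0.197), and without sham replicate 3 14 of 18 were lower. Oligodendrocyte markers were lower in 9 of 11 cases (median -0.209, with -0.685 without 3VO replicate 1 to 0.194 without sham replicate 2). Of the pituitary and hypothalamus list 6 of 15 were higher (median -0.034, with -0.247 without 3VO replicate 1 to 0.651 without 3VO replicate 3). Its summed signal was up to 42000 after 3VO, on replicate 2, and up to 16280 after sham surgery. Leptomeningeal markers were split (7 of 13 higher, median 0.021), peripheral nerve markers were lower in 4 of 7 cases (median -0.09, with -0.347 without sham replicate 2 to 0.514 without sham replicate 1) and skeletal muscle markers in 11 of 16 (median -0.416, with -0.615 without sham replicate 1 to -0.187 without sham replicate 3). With the neuron list mean as a covariate 7 probe sets passed at 3 d, 6 of them higher (Timp1, Gpnmb, Pla1a, Ifitm1, Cd68 and Matn2) and 1 lower (Sptb). With the choroid plexus list mean as a covariate none passed. The part of surrounding tissue in single differences was otherwise not tested.

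**Figure D4:**
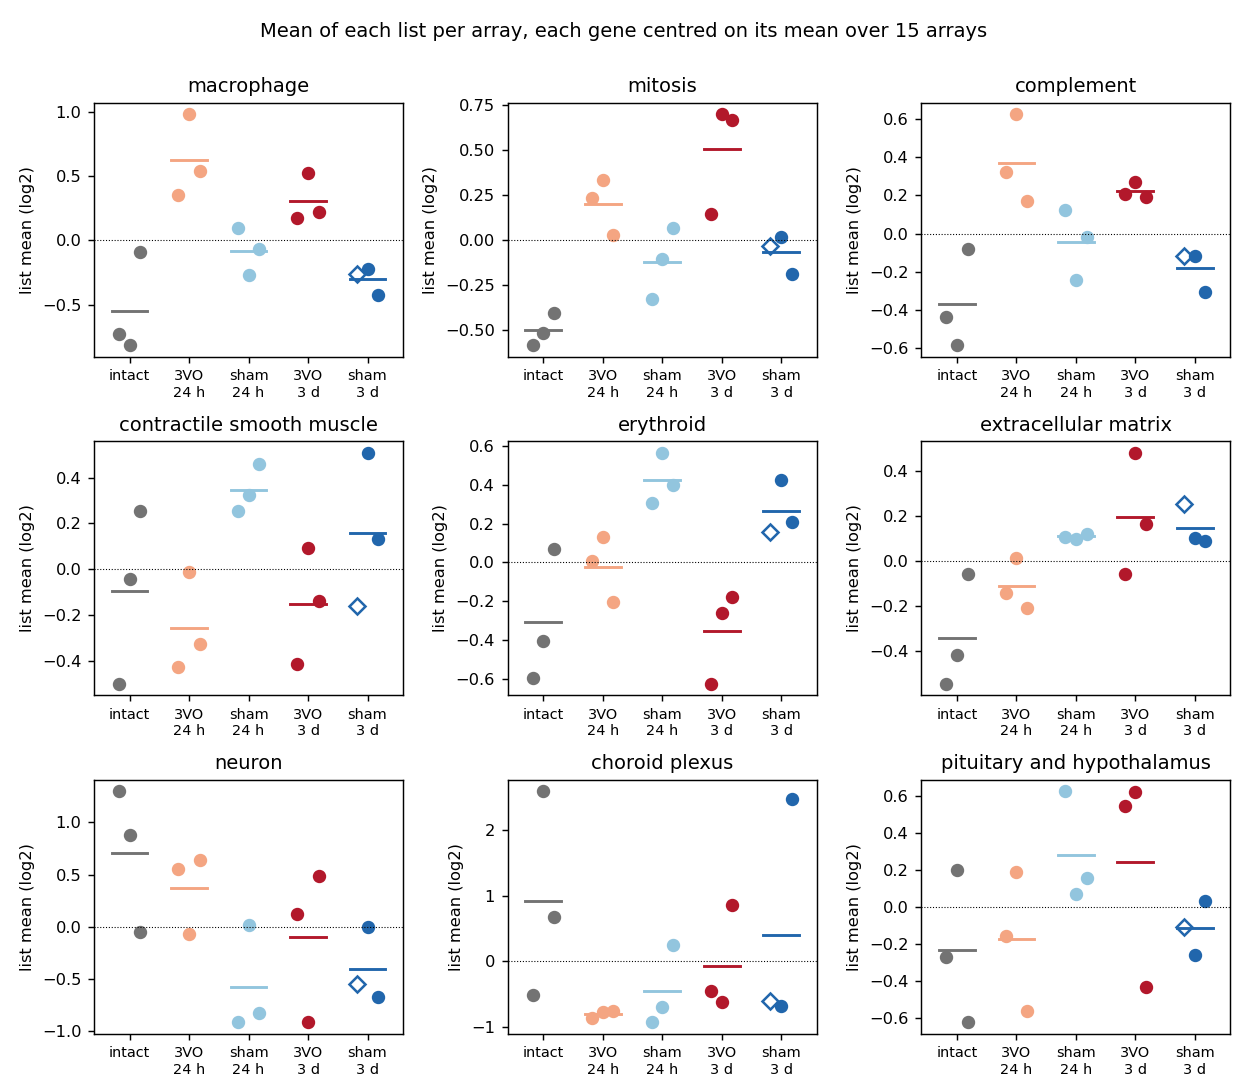
Mean of 9 gene lists on each of the 15 arrays on the log2 scale, each gene centred on its mean over all arrays, with 1 point per array, a bar at the group mean and an open diamond for sham array 3A of 3 d. At 3 d all 3VO points lie above all sham points for macrophage, mitosis and complement genes and below them for erythroid genes, the contractile list overlaps through array 3A, and choroid plexus genes reach 2.47 on 1 sham array.

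The remaining lists stayed near the median of all genes. Medians were 0.02 for chaperones (13 of 23 higher), 0.046 for glycolysis and hypoxia (15 of 26), 0.055 for glucocorticoid response (9 of 15) and -0.014 for adhesion molecules (5 of 11). Pdia3, a folding enzyme of the endoplasmic reticulum, was the clearest single gene among these at 59986, 73472 and 71345 after 3VO and 53185, 44983 and 48272 after sham surgery (log2 0.48, SE 0.14), with the opposite sign at another probe set. The lactate dehydrogenase Ldha differed by 0.22 (SE 0.15) and Klf9, a glucocorticoid target, by -0.35 (SE 0.19, -0.17 without sham replicate 2), both with overlap.

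The effect at 3 d was set against that at 24 h by a contrast of both differences, which share no array. No probe set passed (0.0%), 438 had an unadjusted p under 0.05 (2.78%), and the lowest limma adjusted p was 0.704. Of the 14 leading higher genes at 3 d all 14 were also higher at 24 h, 12 with no overlap there, and of the 14 leading lower genes 13 were lower, 9 with no overlap. Over all probe sets, 960 of the 1430 that did not overlap at 3 d had the same sign at 24 h. Of all 15737, 255 did not overlap at both times in the same direction and 35 in opposite directions. The shares of all probe sets with the same sign at both times, or without overlap at 24 h, were not counted. These counts therefore do not show agreement beyond that of all probe sets. Timp1 had a smaller difference at 3 d than at 24 h, 1.73 against 2.55, and Ccl2 a larger one, 2.83 against 1.14. Mitosis genes had a median of 0.485 at 3 d and 0.26 at 24 h, and macrophage genes 0.51 at 3 d and 0.273 at 24 h. Contractile genes had -0.366 at 3 d and -0.569 at 24 h, and matrix genes 0.00072 at 3 d and -0.279 at 24 h. Neuronal markers had 0.313 at 3 d and 0.962 at 24 h. Taken gene by gene, the effect at 3 d minus that at 24 h had a median of 0.313 for mitosis genes and -0.0349 for macrophage genes. At 24 h the summed macrophage signal was 409600 to 588500 after 3VO and 284900 to 385800 after sham surgery. The macrophage medians thus do not show that the effect was larger at 3 d. The median over all genes was -0.0048 at 3 d and -0.014 at 24 h, and differences between medians were not tested.

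The genes with the smallest p for the difference between the times were partly acute phase genes. C3 differed by -0.22 at 3 d and 1.46 at 24 h, a difference of -1.68 (SE 0.30, limma adjusted p = 0.704). At 24 h C3 had stood at 19484, 22155 and 14771 after 3VO and 7702, 5036 and 7914 after sham surgery, so that its 3VO arrays alone had been high. Lcn2 differed by 0.68 at 3 d and 2.63 at 24 h (-1.95, SE 0.53). Calca, the precursor of calcitonin gene-related peptide, a vasodilator of perivascular nerves, stood at 69, 113 and 218 after 3VO and 486.9, 4975 and 478.9 after sham surgery at 3 d, with 1 sham array far above the rest. At 24 h it had stood at 335.9, 97 and 582.9 after 3VO and 122, 44 and 63 after sham surgery, so that the difference between the times of -4.70 came mostly from low signals. Glra2, a glycine receptor subunit, had stood at 1825, 1193 and 1042 after 3VO and 69, 182 and 48 after sham surgery at 24 h, and differed by 0.075 at 3 d. LOC102549726 differed by 0.052 at 3 d and 0.62 at 24 h, and Psmc5, a proteasome subunit, by -0.39 at 3 d and 0.40 at 24 h. In the other direction, Nos2 and Gh1 had differences of 5.19 and 4.17, Rhcg, an ammonium transporter, 3.11, Ccdc66, a protein of cilia and the centrosome, 1.65, the receptor Mrgprf 1.43 and Zmpste24, which processes lamin A, 0.956.

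**Figure D5:**
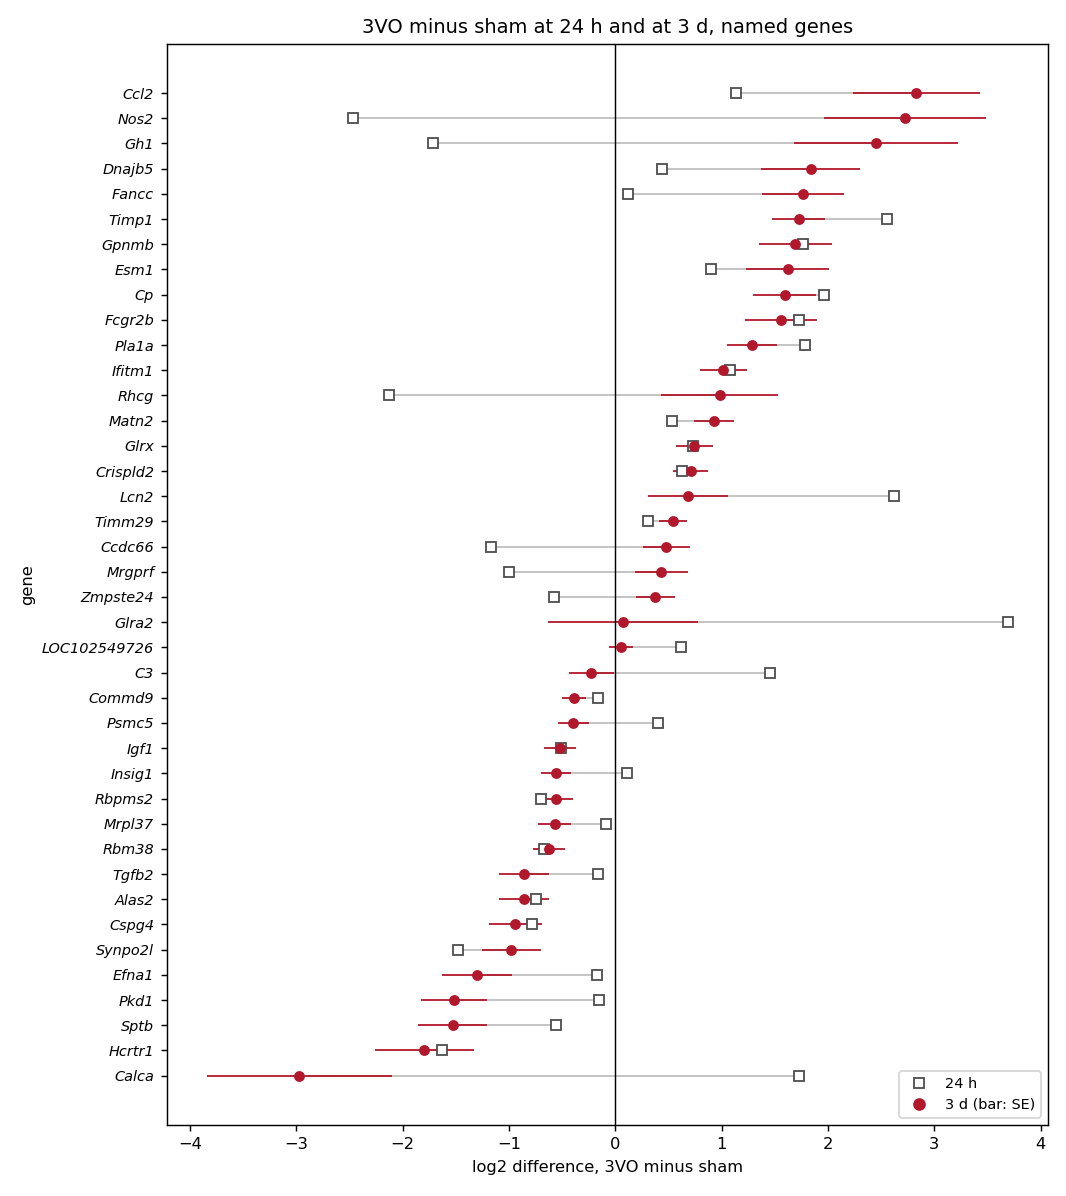
Log2 difference, 3VO minus sham, at 24 h (open squares) and at 3 d (red points with the SE of limma) for the leading genes of 3 d and the genes with the smallest p for the difference between the times, from the highest value at 3 d at the top to the lowest. Most leading genes have the same sign at both times, and Nos2, Calca, Gh1, Glra2 and Rhcg have the widest gaps.

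Set beside intact arteries, the groups of 3 d differed from them in different ways. Relative to the same intact arrays, mitosis genes had a median log2 difference of 0.975 after 3VO and 0.381 after sham surgery. Macrophage genes had 0.665 after 3VO and 0.185 after sham surgery, and complement genes 0.755 after 3VO and 0.0752 after sham surgery. Erythroid genes had -0.17 after 3VO and 0.453 after sham surgery. Contractile genes had -0.117 after 3VO and 0.185 after sham surgery. The list mean of macrophage genes was -0.73, -0.81 and -0.093 on the intact arrays, so that the last lay above all 3 sham arrays (-0.26, -0.22 and -0.43). For complement genes the same intact array, at -0.080, also lay above all sham arrays (-0.12, -0.12 and -0.31). It was below all 3VO arrays for both lists. For erythroid and contractile genes intact arrays reached into the range of an operated group. Both comparisons share the intact arrays. Mki67 had a mean of 1711 after 3VO, 566.6 after sham surgery and 165.3 in intact arteries, so that the sham group was also above the intact one.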

How the data were processed

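RNA pooled from the arteries of 8 rats was hybridised to each Affymetrix Rat230A array, 3 per group in 5 groups named by the source labels. Per the submitters' processing notes and the series' design text the authors computed 1 signal per probe set with GCOS (no version stated). The deposited signal is a scaled intensity on a linear scale. The design text gives a scaling target of 500 and the deposited trimmed means are 5000, so values have meaning relative to each other only.

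From 15923 probe sets 57 controls were left out, and those with a signal of at least 100 on at least 3 arrays were kept (15737). log2(signal + 16) was fitted with limma 3.58.1 in R 4.3.3 as 5 group means over 15 arrays with a variance trend, and p-values were adjusted by Benjamini-Hochberg with a threshold of 0.05. This scale understates differences of dim genes. The fit was tested on simulated data. Tables and figures used Python 3.11.15, pandas 2.3.3 and matplotlib 3.10.9.

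Genes were named from the platform annotation, updated by Entrez identifier for 12748 probe sets. A single gene was given for 12783 probe sets, several for 312 and none for 2771. The 25 pathway and 14 marker lists held 1008 entries, of which 841 had a probe set of their own, the brightest being used, and 1 of these was below the signal minimum. Lists and members were chosen with earlier results of these data known, and no list was tested.

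Genes named are the 14 higher and 14 lower with the smallest p among non-overlapping probe sets with a mean of at least 1000 in the higher group, up to 4 per list and role, 6 in each direction for the difference between the times, and markers given whatever their values. C1r and Tagln lay outside this rule and were chosen after their values were seen. Other pseudocounts, signal minimums, normalizations, variance models and covariates, and the removal of each array in turn, were tried.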

Additional observations from a re-analysis of the deposited data

Results flagged for a closer look

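Among the genes named in the text, 4 had every 3VO array on one side of every sham array at 3 d and on the opposite side at 24 h. Over all 15737 probe sets 35 did so (0.222%), 24 of them higher and 11 lower at 3 d. These 4 were among the genes named for a small p of the difference between the times, so their selection favours such a pattern. The difference between the times did not pass in limma for any of them, where the lowest adjusted p over all probe sets was 0.704. Groups of 3 arrays are too small for a test of single outlying arrays, and none was made.

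Nos2, the inducible nitric oxide synthase, stood at 4333, 803.8 and 4046 after 3VO and 287.9, 351.9 and 433.9 after sham surgery at 3 d. At 24 h it had stood at 234, 274.9 and 172 after 3VO and 313.9, 2047 and 3352 after sham surgery. The log2 effect at 3 d minus that at 24 h was 5.19 (SE 1.08). Both groups changed places, and the sham arrays of 24 h spread the most.

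Ccdc66, a protein of cilia and the centrosome, stood at 3569, 3833 and 3895 after 3VO and 2605, 2722 and 2762 after sham surgery at 3 d. At 24 h it had stood at 1423, 1598 and 1483 after 3VO and 3083, 3943 and 3221 after sham surgery. The difference between the times was 1.65 (SE 0.31), with arrays of a group close to each other.

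Zmpste24, the protease that processes lamin A, stood at 13642, 14061 and 13593 after 3VO and 10155, 9728 and 12007 after sham surgery at 3 d, and at 7504, 8955 and 8199 after 3VO and 12223, 10839 and 13846 after sham surgery at 24 h. The difference between the times was 0.956 (SE 0.25).

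Psmc5, an ATPase subunit of the proteasome, ran the other way. It stood at 8628, 7866 and 8781 after 3VO and 9567, 11281 and 12549 after sham surgery at 3 d, and at 13717, 9867 and 11720 after 3VO and 9499.9, 8479 and 8603 after sham surgery at 24 h, with a difference between the times of -0.792 (SE 0.21).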

How the results depend on the processing

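The count of probe sets past the threshold at 3 d was 0 in the fit used above and in 24 of the 31 alternatives tried. It was 1 with the array number as a covariate (Cp, limma adjusted p = 0.0212), 1 with the operated groups alone (Timp1, limma adjusted p = 0.0119), 1 with the groups of 3 d alone (Timp1, limma adjusted p = 0.0346) and 7 with the neuron list mean as a covariate (lowest limma adjusted p = 0.0104). Leaving out each array in turn gave 0 to 1, and the 1 was Timp1 without 3VO replicate 3 of 24 h, intact replicate 2 or intact replicate 3. The lowest limma adjusted p was 0.104 without array 3A, 0.824 without 3VO replicate 2 of 3 d and 0.495 without a variance trend. The count for the difference between 3 d and 24 h was 0 in all 30 alternatives run. Of the values of named genes at 3 d under these alternatives, 13 passed the threshold, 63 had the opposite sign and 8721 did neither, and no gene with an unadjusted p under 0.05 turned its sign. Dim genes limit the precision, since the pseudocount of 16 weighs on signals near 100. No paired analysis was possible because the labels give the groups no shared replicate numbers. The covariate and the array removal for choroid plexus markers were chosen after the data were seen, and both gave 0.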
